A study of Mus musculus with 42 samples.

Results

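The livers of 14 mice, 7 given water and 7 given VAAM, were compared on 1 Affymetrix mouse genome array each, out of 42 arrays that also covered white and brown fat. VAAM is an amino acid mixture made to resemble the saliva of hornet larvae of the genus *Vespa*. All animals were male ddY mice, an outbred stock, bought at 5 weeks of age and acclimated for 1 week. The water group (DW) and the VAAM group received 37.5 μL per g of body weight through a feeding tube on each of 5 days, as water or as a 1.8% VAAM solution, and livers were taken 4 h after the last dose. Food had been withdrawn from both groups shortly before that dose, after free access to food on the days before. The members are all 45037 probe sets of the liver arrays other than the manufacturer's controls. The 34945 probe sets that name 1 gene cover 18193 genes, and a gene is represented below by its brightest probe set in liver.

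The liver takes up amino acids from the portal blood, transaminates them and passes their nitrogen to the urea cycle and their carbon to glucose, ketone bodies or fat. Glucagon, through cyclic AMP and the factor CREB, and glucocorticoids, through the glucocorticoid receptor, raise the genes for amino acid breakdown and gluconeogenesis in this tissue, while insulin lowers them through the FOXO factors. The liver also holds the main cytochrome P450 and glutathione transferase enzymes of detoxification, makes bile acids and the acute phase proteins of plasma, and houses Kupffer cells, its resident macrophages. The 8 measured hepatocyte markers had deposited mean levels of 11.85 (*Hnf4a*) or above, the 6 skeletal muscle markers lay between 6.14 and 6.84, and the median probe set of an array was at 6.73.

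The deposited values are on a log2 scale after the distribution free weighted summary (DFW), which shrinks the differences between arrays by a factor of its own for each probe set. The median range over the 14 livers was 3.76e-05 and the largest was 2.53. A difference is therefore given in SD, as the mean of the VAAM mice less that of the water mice over the pooled SD within groups, with its standard error (SE), and the level of a mouse is given in SD from the water mean. Neither is a fold change. The exact p beside a gene is two-sided, over all 3432 splits of 14 mice into 7 and 7, and is not adjusted for the number of genes. The p-values measure the spread between these mice, and the number of arrays limits the precision.

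No probe set passed limma at an adjusted p under 0.05 (0 higher and 0 lower, smallest adjusted p 0.148). The single genes below are therefore described by their values and were not called by limma. Among all genes, 3.96% had an unadjusted limma p under 0.05 with a higher mean in VAAM and 4.84% with a lower mean, and these shares are the background for the counts of gene lists. At probe sets the same shares were 4.17% and 4.92%. Rank products, the method named by the study, which ranks differences on the deposited scale, called 2.68% of probe sets higher, 1.42% lower and 0.293% in both directions at once. Among genes the shares were 3.2%, 1.78% and 0.39%. With each probe set first scaled to unit SD, they were 0.495% higher and 0.357% lower of probe sets, and 0.418% and 0.368% of genes. The calls on the deposited scale concentrated in the probe sets that varied most: all 92 probe sets with a range over 0.1 were called, 48 of them in both directions. Over all genes the median difference was −0.05 SD, with 8529 genes higher and 9663 lower in VAAM. Quantile normalization of the 14 arrays moved that median to −0.34 SD, so the value after it is given for each gene described by its difference below that had an unadjusted p under 0.05 and turned its sign. For the brightest probe sets this second normalization leaves almost no information, because 7.28% of genes kept at most 2 distinct values over the 14 arrays and many of those then read 0.53 or −0.53 SD.

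Glucocorticoid-responsive genes had members with both higher and lower means in VAAM, with the kinase gene *Sgk1* the highest and *Cdkn1a* the lowest. Of the 18 measured glucocorticoid-responsive genes, 13 had a higher mean in VAAM and 5 a lower one, with a median of 0.29 SD against −0.05 SD for all genes. Unadjusted p was under 0.05 for 5 higher and 2 lower members, where 3.96% and 4.84% of all genes did the same. Rank products called 10 higher and 3 lower, against 3.2% and 1.78% of all genes. After quantile normalization the median was 0.15 SD, and without VAAM mouse 6 or 5 it was 0.11 or 0.13 SD. The members described next are mainly those with the higher means.

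*Sgk1*, which encodes serum and glucocorticoid-regulated kinase 1, a regulator of ion channels and transporters, ran from −1.24 to 2.11 SD in water, with a median of 0.07, and from 1.67 to 3.46 SD in VAAM, with a median of 2.19. Only the highest water mouse reached the range of the VAAM group. The difference was 2.46 ± 0.73 SD (SE, exact permutation p 0.00233, n = 7 per group), and 2.23 SD after quantile normalization. *Dusp1*, encoding a phosphatase that switches off MAP kinases, ran from −1.12 to 1.64 SD in water with a median of −0.02, and from 0.28 to 3.52 SD in VAAM with a median of 1.38. The groups overlapped, and no VAAM mouse lay below the median of the water mice. The difference was 1.63 ± 0.63 SD (exact permutation p 0.00991, n = 7 per group). *Errfi1*, encoding an inhibitor of the EGF receptor, ran from −1.70 to 1.58 SD in water and from 0.82 to 2.30 SD in VAAM, with medians of 0.20 and 1.56. Its difference was 1.60 ± 0.63 SD (exact permutation p 0.00932, n = 7 per group), and its other probe set gave 1.36 SD.

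*Cebpd*, a transcription factor gene of the acute phase and of fat cell formation, lay between −1.03 and 2.24 SD in water and between 0.78 and 2.62 SD in VAAM, with medians of −0.50 and 1.11. The difference was 1.40 ± 0.61 SD (exact permutation p 0.0245, n = 7 per group). *Tsc22d3*, which encodes the glucocorticoid-induced leucine zipper protein, lay between −0.85 and 2.63 SD in water and between 0.29 and 2.65 SD in VAAM, with medians of −0.32 and 1.24. The water group held 1 mouse, number 6, almost as high as the highest VAAM mouse, and the difference was 1.32 ± 0.60 SD (exact permutation p 0.0315, n = 7 per group). Other well-known targets of the receptor stood elsewhere. *Fkbp5*, encoding a chaperone of the receptor itself, differed by −0.01 ± 0.53 SD, and *Mt1* and *Mt2*, the metallothionein genes, by 0.32 and 0.43 SD. *Zbtb16*, encoding a zinc finger repressor, and *Cdkn1a*, encoding the cell cycle inhibitor p21, had lower means in VAAM, by −1.14 and −1.19 SD. Without VAAM mouse 6, whose array stood apart on the third principal component (score 3.15), neither of these lower members kept an unadjusted p under 0.05 (5 higher and 0 lower).

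**Figure D1:**
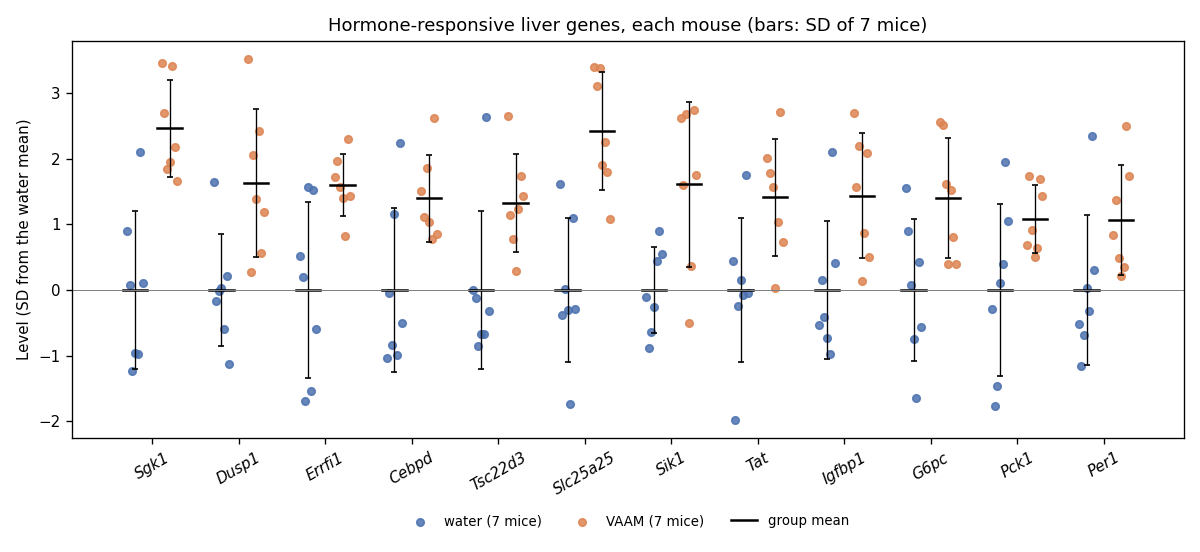
Levels of 12 hormone-responsive genes in each liver, in SD from the water mean (y axis). All 12 had a higher mean in VAAM, and members with lower means, such as *Zbtb16* and *Cdkn1a*, are not shown. Points are mice (blue water, orange VAAM, 7 each), thick lines are group means and bars are the SD of the 7 mice. For *Sgk1* the VAAM mice sit between 1.67 and 3.46 SD and 1 water mouse reaches into that range, while for *Pck1* and *Per1* the groups overlap widely.

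Among the 16 measured genes linked to cyclic AMP and glucagon, 11 were higher and 5 lower in VAAM, with a median of 0.62 SD. After quantile normalization the median turned to −0.24 SD, with 6 genes higher and 10 lower. *Sik1*, a kinase gene that CREB induces and whose product in turn restrains CREB's coactivators, was the highest of them. It lay between −0.88 and 0.89 SD in water and between −0.50 and 2.74 SD in VAAM, with medians of −0.11 and 1.75. In the VAAM group 5 mice were above every water mouse and 2 lay within the water range. The difference was 1.61 ± 0.63 SD (exact permutation p 0.0157, n = 7 per group), and 1.59 SD after quantile normalization. *Crem*, encoding the inducible repressor of the same pathway, differed by 1.20 ± 0.59 SD and turned to −0.60 SD after quantile normalization. *Nr4a1*, an orphan nuclear receptor gene of the fasting response, differed by 0.87 SD and turned to −1.30 SD. The receptor for glucagon, *Gcgr*, differed by 0.02 SD. *Slc25a25*, encoding a calcium-regulated mitochondrial carrier of ATP and magnesium, belonged to none of the lists and was among the 10 higher genes with the smallest p. It lay between −1.74 and 1.61 SD in water and between 1.09 and 3.39 SD in VAAM, with medians of −0.29 and 2.25. The difference was 2.42 ± 0.73 SD (exact permutation p 0.00175, n = 7 per group). Of its other probe sets, 1 gave 1.94 SD and 1 gave −0.11 SD.

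The sequences just before the start sites of these genes are shown because the groups above are named after hormone pathways that act through short promoter elements. RefSeq promoters (assembly GRCm38.p6, 250 bases upstream of the start) were searched on both strands for the palindrome TGACGTCA, the full cyclic AMP response element that CREB binds, and for CAAAACA, the core of the insulin response element that FOXO factors bind. Of 16 genes searched, 12 were in the RefSeq table, with 23 start sites between them. All 16 had a higher mean in VAAM and were chosen with their values known, so the shares below are background and test no enrichment. TGACGTCA stood before 1 start each of *Slc25a25*, *Dusp1* and *Errfi1*, with the first base at −150, −143 and −51 from the start, where 1.55% of all 32851 promoters in the table hold it. CAAAACA stood before *Igfbp1* and, on the opposite strand, before *G6pc*, with the first base at −108 and −174, where 5.56% of all promoters hold it. By gene, 1.77% of those in the table hold TGACGTCA and 6.38% hold CAAAACA before at least 1 start. None of the 5 sequences holds both motifs. Neither motif stood in the searched bases of *Sgk1*, *Ass1*, *Fos*, *Tat*, *Tsc22d3*, *Per1* or *Pck1*. No glucocorticoid response element was searched for. Capitals mark the match, which is a description of the letters and not of a bound site.

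Slc25a25 (chr2:32424067-32424316, minus strand): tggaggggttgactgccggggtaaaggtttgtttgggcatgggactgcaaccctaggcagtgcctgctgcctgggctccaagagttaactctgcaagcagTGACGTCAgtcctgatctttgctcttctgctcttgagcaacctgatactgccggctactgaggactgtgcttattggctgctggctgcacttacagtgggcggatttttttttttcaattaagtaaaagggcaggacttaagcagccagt
Dusp1 (chr17:26508473-26508722, minus strand): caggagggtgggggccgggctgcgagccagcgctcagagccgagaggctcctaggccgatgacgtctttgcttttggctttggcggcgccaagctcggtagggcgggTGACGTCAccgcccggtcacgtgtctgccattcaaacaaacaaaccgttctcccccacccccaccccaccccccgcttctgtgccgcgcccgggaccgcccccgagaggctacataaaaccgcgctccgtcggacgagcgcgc
Errfi1 (chr4:150854820-150855069, plus strand): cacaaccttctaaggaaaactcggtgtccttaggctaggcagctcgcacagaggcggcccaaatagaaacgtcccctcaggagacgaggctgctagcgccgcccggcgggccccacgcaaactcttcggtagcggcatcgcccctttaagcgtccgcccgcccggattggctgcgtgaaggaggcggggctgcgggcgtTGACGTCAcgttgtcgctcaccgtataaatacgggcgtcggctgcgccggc
Igfbp1 (chr11:7197537-7197786, plus strand): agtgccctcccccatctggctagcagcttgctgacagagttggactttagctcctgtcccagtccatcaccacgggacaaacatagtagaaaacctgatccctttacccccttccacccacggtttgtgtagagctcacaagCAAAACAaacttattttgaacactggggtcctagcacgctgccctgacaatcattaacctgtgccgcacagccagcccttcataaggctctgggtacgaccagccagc
G6pc (chr11:101367466-101367715, plus strand): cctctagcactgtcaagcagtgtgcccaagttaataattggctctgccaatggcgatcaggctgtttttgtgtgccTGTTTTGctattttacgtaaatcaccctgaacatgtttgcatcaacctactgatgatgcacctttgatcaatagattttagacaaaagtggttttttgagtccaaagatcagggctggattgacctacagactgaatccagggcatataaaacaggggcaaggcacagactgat

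*Igfbp1* and *G6pc*, whose promoters carry the second motif, are the textbook liver genes that insulin lowers. *Igfbp1* encodes a secreted protein that binds insulin-like growth factors and rises in fasting. It lay between −0.98 and 2.10 SD in water and between 0.14 and 2.69 SD in VAAM, with medians of −0.42 and 1.56, and water mouse 6 was the only water mouse above 0.41 SD. The difference was 1.44 ± 0.61 SD (exact permutation p 0.0245, n = 7 per group). *G6pc* encodes the catalytic subunit of glucose-6-phosphatase, which releases free glucose. It lay between −1.64 and 1.55 SD in water and between 0.39 and 2.56 SD in VAAM, with medians of 0.08 and 1.52. In water 3 mice lay within the VAAM range, and the difference was 1.40 ± 0.61 SD (exact permutation p 0.0268, n = 7 per group). *Pck1*, encoding the cytosolic enzyme that makes phosphoenolpyruvate, differed by 1.08 ± 0.58 SD (exact permutation p 0.0676, n = 7 per group), and the coactivator gene *Ppargc1a* by 0.82 ± 0.56 SD (exact permutation p 0.151, n = 7 per group). Rank products called *Igfbp1*, *G6pc*, *Pck1* and *Ppargc1a* higher. The study measured *G6pc* by PCR as well and reported it as higher with VAAM than with water.

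Of the 13 measured members of the gluconeogenesis list, 8 were higher and 5 lower, with a median of 0.22 SD on the deposited values and −0.53 SD after quantile normalization, and 1 had an unadjusted p under 0.05. *Fbp1*, encoding fructose-bisphosphatase, differed by 0.22 SD, *Pcx*, encoding pyruvate carboxylase, by −0.63 SD, and *Slc37a4*, encoding the transporter that feeds glucose-6-phosphatase, by −0.58 SD. In the insulin and IGF list, 14 of 16 members were higher in VAAM, with a median of 0.52 SD, but after quantile normalization 8 were higher and 8 lower, with a median of 0.08 SD. Rank products called *Igfbp1*, *Igfbp2*, *Igfbp3* and *Socs2*, an inhibitor of growth hormone signalling, higher and no member lower. Of all genes they called 3.2% higher and 1.78% lower. The circadian gene *Per1*, which glucocorticoids and cyclic AMP also induce, differed by 1.07 ± 0.58 SD (exact permutation p 0.0693, n = 7 per group), while the 19 clock genes as a list had a median of 0.01 SD.

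In the 12 genes of the hormone plot the same mice tended to stand at the edges of their group. Water mouse 6 was the highest water mouse for 8 of the 12 genes, and VAAM mouse 4 was the lowest VAAM mouse for 6 of them. VAAM mice 1 and 6 were the highest of their group for 6 and 5 genes. The 12 genes are thus read from the same mice and are not separate observations of the group difference.

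Immediate early genes, which growth factors, stress and hormones switch on within minutes, showed higher means for some members and lower means for others. Of 20 measured genes 12 were higher and 8 lower, with a median of 0.28 SD, which turned to −0.15 SD after quantile normalization. Unadjusted p was under 0.05 for 5 higher members and 0 lower members, where 3.96% and 4.84% of all genes did the same. Without VAAM mouse 5 or without VAAM mouse 6 it was under 0.05 for 3 higher members. *Fos*, encoding a subunit of the AP-1 factor, lay between −1.22 and 0.98 SD in water and between 0.15 and 3.52 SD in VAAM, with medians of 0.15 and 1.12. Its lowest VAAM mouse was at the water median and the difference was 1.55 ± 0.62 SD (exact permutation p 0.0134, n = 7 per group). *Egr1*, encoding a zinc finger factor induced by MAP kinase signalling, lay between −0.80 and 1.03 SD in water and between −0.42 and 3.30 SD in VAAM, with medians of −0.01 and 1.25. The groups overlapped and the difference was 1.44 ± 0.61 SD (exact permutation p 0.021, n = 7 per group). *Zfp36*, encoding a protein that destabilizes cytokine mRNAs, and *Btg2*, an antiproliferative gene, differed by 1.16 and 1.08 SD. The values of *Klf2*, 1.53 SD, and *Gadd45b*, 1.25 SD, turned to −0.17 and −0.43 SD after quantile normalization. *Junb* and *Jun* differed by 0.52 and 0.88 SD, *Fosb* by −0.87 SD and *Myc* by −0.65 SD.

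VAAM supplies amino acids, at a dose that the study describes as sub-nutritional. The lists of amino acid handling had medians on both sides of 0, with a few members far from it. Of 20 amino acid transporters 16 were higher and 4 lower, with a median of 0.36 SD that turned to −0.19 SD after quantile normalization, and 2 of the 20 had an unadjusted p under 0.05. *Slc38a2*, encoding the SNAT2 transporter of small neutral amino acids, lay between −0.97 and 2.24 SD in water and between −0.04 and 2.62 SD in VAAM, with medians of −0.26 and 1.20. The difference was 1.41 ± 0.61 SD (exact permutation p 0.028, n = 7 per group) and 1.52 SD after quantile normalization. *Slc38a3*, encoding the glutamine transporter SNAT3 of periportal hepatocytes, lay between −1.56 and 1.87 SD in water and between −0.14 and 2.59 SD in VAAM, with medians of 0.25 and 1.63. Its difference was 1.68 ± 0.64 SD (exact permutation p 0.0122, n = 7 per group), and it turned to −0.21 SD when each array was centred on its median.

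*Tat*, encoding tyrosine aminotransferase, the first enzyme of tyrosine breakdown and the classical liver gene that both glucocorticoids and glucagon induce, was the highest member of its list. It lay between −1.99 and 1.74 SD in water and between 0.02 and 2.71 SD in VAAM, with medians of −0.04 and 1.57. Of the VAAM mice 6 lay above 6 of the 7 water mice, and the difference was 1.41 ± 0.61 SD (exact permutation p 0.0192, n = 7 per group). The remaining genes of phenylalanine, tyrosine and tryptophan breakdown had mostly lower means, 9 of 14 with a list median of −0.34 SD, among them *Gstz1*, encoding maleylacetoacetate isomerase, at −1.37 ± 0.60 SD, which turned to 0.53 SD after quantile normalization. Branched-chain amino acid breakdown had 13 of 18 genes lower and a median of −0.43 SD, with 2 higher and 0 lower members at an unadjusted p under 0.05.

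*Ass1*, encoding argininosuccinate synthetase of the urea cycle, had a large difference in the 1 probe set that names it alone. This probe set lay between −0.81 and 1.97 SD in water and between 0.93 and 3.78 SD in VAAM, with medians of −0.31 and 2.24. Water mouse 6 was the only water mouse within the VAAM range, and the difference was 2.36 ± 0.72 SD (exact permutation p 0.00233, n = 7 per group). It was dim, with a mean of 7.04. A brighter probe set at 12.24 names *Ass1* together with a further locus, *Gm5424*, and gave 0.80 ± 0.56 SD (exact permutation p 0.162, n = 7 per group) and −0.53 SD after quantile normalization. The other 9 urea cycle and ammonia genes ran from −1.02 SD for *Nags*, encoding the enzyme that makes the activator of the cycle, to 0.71 SD for *Slc25a15*, the ornithine carrier gene, with *Cps1* at −0.28 SD and *Otc* at 0.08 SD.

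The amino acid response list, the targets of ATF4 that rise when amino acids run short, had 11 genes higher and 11 lower and a median of 0.00 SD. *Atf4* itself was its highest member, at 1.31 ± 0.60 SD (exact permutation p 0.0303, n = 7 per group), but its other probe sets gave 0.23 SD and −1.70 ± 0.64 SD (exact permutation p 0.0111, n = 7 per group for the latter), so they disagree. *Phgdh*, encoding the first enzyme of serine synthesis, was the lowest member, at −1.55 ± 0.62 SD (exact permutation p 0.0152, n = 7 per group). *Asns* and *Trib3*, targets often used to read this response, differed by −0.28 and 0.06 SD. Of the 18 cytosolic aminoacyl-tRNA synthetase genes 13 were higher, with a median of 0.26 SD, and *Sars*, the seryl-tRNA synthetase gene, at 1.67 ± 0.63 SD turned to −0.06 SD after quantile normalization. The 24 genes of mTOR and nutrient sensing had a median of 0.25 SD, which turned to −0.51 SD after quantile normalization. Their highest member was *Depdc5* at 1.78 ± 0.65 SD and their lowest *Lamtor1* at −1.81 ± 0.65 SD. Glycine, serine and threonine metabolism and proline, ornithine and polyamine metabolism, which handle amino acids abundant in the mixture, had medians of 0.07 and 0.00 SD and no member with an unadjusted p under 0.05.

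In the list of glutathione and NRF2 targets the lowest member was *Gsta4* and the next *Gsta2*. *Gsta4*, encoding the transferase that detoxifies lipid aldehydes such as hydroxynonenal, lay between −1.61 and 1.65 SD in water and between −3.72 and −1.44 SD in VAAM, with medians of 0.35 and −3.18. Only the lowest water mouse entered the VAAM range. The difference was −2.84 ± 0.79 SD (exact permutation p 0.00117, n = 7 per group), but after quantile normalization it was 0.00 SD. *Gsta2*, encoding an alpha-class transferase that NRF2 induces, lay between −1.85 and 1.96 SD in water and between −2.98 and −1.25 SD in VAAM, with medians of −0.03 and −1.85. Again 1 water mouse reached the VAAM range. The difference was −1.90 ± 0.66 SD (exact permutation p 0.00291, n = 7 per group) and −1.84 SD after quantile normalization. *Gstm6* differed by −1.43 ± 0.61 SD (exact permutation p 0.0233, n = 7 per group) and *Gclc*, encoding the catalytic subunit of the enzyme that limits glutathione synthesis, by −1.08 ± 0.58 SD (exact permutation p 0.067, n = 7 per group).

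Of the 23 genes in the glutathione and NRF2 list, 10 were higher and 13 lower, with a median of −0.23 SD (−0.43 SD after quantile normalization). Unadjusted p was under 0.05 for 1 higher and 3 lower members, where 3.96% and 4.84% of all genes did the same. Rank products called 0 higher and 8 lower, against 3.2% and 1.78% of all genes. Of the 8, 7 were transferase genes and 1 was *Gclc*. The transferase gene *Gstt1* was called lower although its difference in SD was 0.18. *Nfe2l2*, which encodes NRF2 itself, was the highest member at 1.22 ± 0.59 SD, and turned to −0.13 SD as the mean of its probe sets. The other standard NRF2 targets stood near 0, with *Nqo1* at −0.23 SD, *Hmox1* at 0.02 SD and *Gclm* at 0.14 SD. Among 25 cytochrome P450 and receptor genes, 17 were lower, with a median of −0.35 SD that moved to 0.01 SD after quantile normalization, and rank products called 8 lower and 2 higher, the latter 2, *Cyp2b9* and *Cyp2c38*, in both directions. *Cyp1a2*, the enzyme of caffeine clearance, differed by −0.996 ± 0.57 SD (exact permutation p 0.0845, n = 7 per group) and *Cyp2d26* by −1.39 ± 0.61 SD (exact permutation p 0.0134, n = 7 per group), the latter turning to 0.53 SD.

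**Figure D2:**
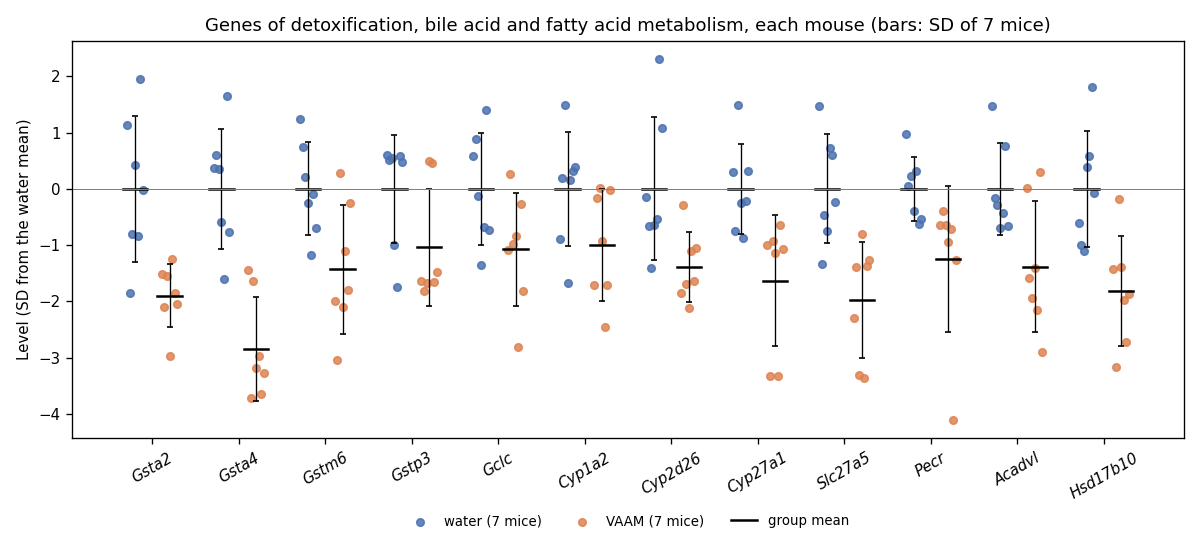
Levels of 12 genes of detoxification, bile acid and fatty acid metabolism in each liver, in SD from the water mean (y axis). All 12 had a lower mean in VAAM, and members with higher means, such as *Nfe2l2*, *Elovl2* and *Cyp7a1*, are not shown. Points are mice (blue water, orange VAAM, 7 each), thick lines are group means and bars are the SD of the 7 mice. For *Gsta2* the VAAM mice sit between −2.98 and −1.25 SD, and for *Pecr* the VAAM mean is pulled by 1 mouse at −4.11 SD.

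In fatty acid metabolism single enzymes had lower means, and the lists pointed in different directions. *Hsd17b10*, encoding a mitochondrial dehydrogenase of isoleucine and branched fatty acid breakdown, lay between −1.10 and 1.81 SD in water and between −3.17 and −0.18 SD in VAAM, with medians of −0.07 and −1.87. All VAAM mice were below the water median, and the difference was −1.82 ± 0.65 SD and −1.89 SD after quantile normalization. Within the list of fatty acid oxidation and PPAR alpha targets, *Acaa2* and *Acadvl*, encoding the thiolase and the very long chain dehydrogenase of mitochondrial beta-oxidation, differed by −1.67 and −1.38 SD. *Cpt1a*, encoding the entry step of the same pathway, differed by 0.69 SD and *Hadha* by 0.86 SD. Of the 21 members 14 were lower, with a median of −0.19 SD, and without VAAM mouse 6 the median was −0.66 SD, with 17 lower members.

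*Pecr*, encoding peroxisomal enoyl-CoA reductase, and *Elovl3*, an elongase gene with strong daily and sex-related variation, were measured by PCR as well in the study. *Pecr* lay between −0.63 and 0.97 SD in water and between −4.11 and −0.39 SD in VAAM, with medians of 0.05 and −0.72. The low end came from VAAM mouse 6 alone, and the difference was −1.25 ± 0.59 SD (exact permutation p 0.00408, n = 7 per group). *Elovl3* lay between −2.16 and 1.12 SD in water and between −2.19 and 0.42 SD in VAAM, with medians of 0.14 and −0.84. The ranges covered each other almost wholly, and the difference was −0.61 ± 0.55 SD (exact permutation p 0.278, n = 7 per group). Rank products called both genes lower. In the same list of long chain fatty acid synthesis, *Elovl2* and *Fads2*, which make polyunsaturated fatty acids, had higher means by 1.25 and 0.97 SD, and 9 of the 12 genes were higher with a median of 0.33 SD (−0.05 SD after quantile normalization).

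In bile acid synthesis, *Slc27a5*, encoding the bile acyl-CoA synthetase, and *Cyp27a1*, encoding the sterol hydroxylase of mitochondria, had the lowest differences, −1.97 ± 0.67 SD and −1.63 ± 0.63 SD (exact permutation p 0.00233 for each, n = 7 per group). Their probe sets are among the brightest and read 0.53 and −0.53 SD after quantile normalization. *Cyp7a1*, the rate-limiting enzyme of the classical pathway, had a higher mean by 0.75 ± 0.56 SD, and the 20 genes of the list had a median of 0.10 SD. Other lipid lists had medians near that of all genes, with cholesterol synthesis and LDL uptake at −0.01 SD and fatty acid synthesis at 0.06 SD. Within the latter, *Pnpla3*, encoding a lipase of lipid droplets, at −1.58 ± 0.62 SD turned to 0.29 SD after quantile normalization.

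Liver genes that differ between the sexes, that mark the zones of the lobule or that fold proteins had list medians between −0.19 and 0.32 SD. The 15 male-biased genes had a median of −0.04 SD, with 7 higher and 8 lower, and the 14 female-biased genes one of 0.32 SD, with 10 higher and 4 lower. Unadjusted p was under 0.05 for 2 male-biased and 1 female-biased genes, all lower. Rank products called 4 male-biased genes higher and 6 lower, 2 of them in both directions. Of the female-biased genes they called 7 higher and 3 lower, the latter 3 in both directions. Over all genes the shares were 3.2% higher and 1.78% lower. *Ces2a*, a carboxylesterase gene, was the lowest male-biased member at −2.45 ± 0.73 SD, and turned to 0.53 SD after quantile normalization. Pericentral hepatocyte genes, near the outflow of the lobule, had 10 of 15 members lower and a median of −0.19 SD, and periportal genes had 6 of 11 higher and a median of 0.16 SD. Rank products called 0 pericentral genes higher and 5 lower, and 3 periportal genes higher and 0 lower. Heat shock and ER chaperones had 14 of 21 genes higher, a median of 0.11 SD and 0 members at an unadjusted p under 0.05. Glucuronosyl- and sulfotransferases had 11 of 15 genes lower and a median of −0.19 SD, with *Ugdh*, which makes the glucuronic acid donor, the lowest at −1.32 SD. The highest was *Sult3a1*, also the highest female-biased gene, at 1.43 ± 0.61 SD. Glycolysis had 6 of 9 genes lower and a median of −0.29 SD, and its lowest member was *Pgk1*, the phosphoglycerate kinase gene, at −1.54 SD. In the cell cycle list 12 of 19 genes were lower, with a median of −0.14 SD, and *Top2a*, encoding the topoisomerase of dividing cells, at −1.87 SD turned to 0.05 SD after quantile normalization.

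Lists of very bright genes changed sign with the normalization. The respiratory chain and ATP synthase had 15 of 22 subunits lower and a median of −0.53 SD, with 5 lower members at an unadjusted p under 0.05, led by *Atp5a1* at −1.75 SD, *Ndufa9* at −1.70 SD and *Sdha* at −1.63 SD. After quantile normalization the median was 0.41 SD, and 12 subunits were higher. *Atp5a1* turned to 0.66 SD as the mean of its probe sets, and *Ndufa9* and *Sdha* to 0.53 SD after quantile normalization. Apolipoproteins and lipoprotein assembly went the other way, with 13 of 16 genes higher, a median of 0.52 SD and a median of −0.45 SD after quantile normalization. *Apom*, the carrier of sphingosine-1-phosphate on HDL, differed by 1.49 ± 0.61 SD and turned to −1.51 SD, and *Apoc1*, an inhibitor of lipoprotein clearance, was the lowest at −1.67 ± 0.63 SD (exact permutation p 0.014, n = 7 per group), although its limma p was 0.775 because its spread was far below the common spread that limma assumes. For these lists the direction is not settled by these values.

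**Figure D3:**
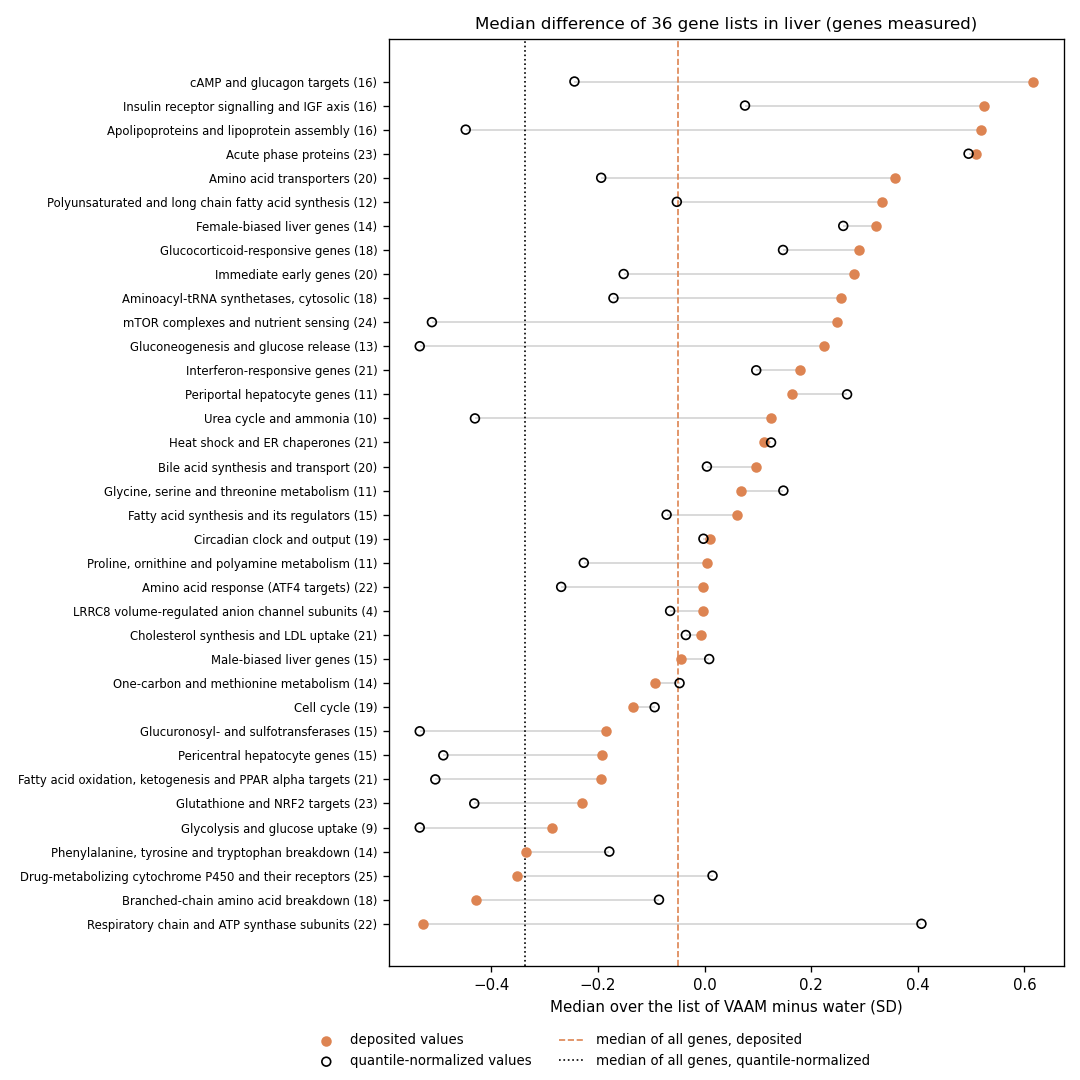
Median difference of each of 36 gene lists (x axis, VAAM minus water in SD), with the number of measured genes in brackets. Filled points are the deposited values and open points the quantile-normalized values, and the vertical lines mark the medians of all genes, −0.05 and −0.34 SD. The acute phase list reads 0.51 and 0.50 SD, while the respiratory chain moves from −0.53 to 0.41 SD.

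Acute phase genes, which cytokines and glucocorticoids raise in hepatocytes, had higher means in VAAM for 21 of 23 members. The median was 0.51 SD, and 0.50 SD after quantile normalization with 14 members higher. Unadjusted p was under 0.05 for 2 members, *Serpina3n*, a protease inhibitor gene, at 1.39 ± 0.61 SD (exact permutation p 0.0245, n = 7 per group) and *Apcs*, the serum amyloid P gene, at 1.19 ± 0.59 SD. Both overlapped between the groups, and 3.96% of all genes had such an unadjusted limma p with a higher mean. The major mouse acute phase genes *Saa1* and *Saa2* differed by 0.53 and 0.54 SD, *Lcn2* by 0.49 SD, and *Stat3*, encoding the factor that drives them, by 0.96 ± 0.57 SD (exact permutation p 0.101, n = 7 per group). Without VAAM mouse 5 the list had 19 members higher and a median of 0.28 SD.

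Markers of liver macrophages had a median close to that of the acute phase list, and whether they varied together over the mice was not tested. All 11 Kupffer cell and macrophage markers had a higher mean in VAAM, from 0.25 SD for *Cd5l* to 0.996 SD for *Lyz2*, with a median of 0.52 SD, but 0 of the 11 had an unadjusted p under 0.05. The mean level of the 11 markers ran from −0.92 to 1.11 SD in water and from −0.76 to 2.64 SD in VAAM, where mouse 5 was highest. Without VAAM mouse 5, 8 markers were higher and 3 lower, with a median of 0.20 SD. In these whole-liver samples more cells of a type and more RNA per cell cannot be told apart. The 10 markers of liver sinusoidal endothelium had 9 higher means and a median of 0.53 SD, led by *Cdh5*, encoding VE-cadherin, at 1.84 ± 0.65 SD (exact permutation p 0.00466, n = 7 per group), which was 0.23 SD after quantile normalization. The hepatocyte markers averaged between −0.55 and 0.41 SD in water and between −0.32 and 0.79 SD in VAAM. The deposited scale has no zero, so no marker of the 12 cell types can be called absent. A sign of RNA quality, the level of the 3′ control probe set of *Gapdh* less that of the 5′ one, was higher in VAAM by 1.41 ± 0.61 SD (exact permutation p 0.0262, n = 7 per group), and that of beta-actin by 0.61 ± 0.55 SD (p 0.272, exact permutation). The part of the cell markers and of these controls in the differences of single genes was not tested.

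Interferon-responsive genes had 18 of 21 means higher in VAAM with a median of 0.18 SD and no member at an unadjusted p under 0.05. Rank products called 10 of them higher and 6 lower, and these 6 were called in both directions. Of all genes they called 3.2% higher, 1.78% lower and 0.39% in both directions. This group turned on 1 animal. Without VAAM mouse 5, only 7 of the 21 were higher, 14 were lower and the median was −0.24 SD. T and NK cell markers did the same, with 6 of 8 higher in all mice and 2 of 8 without VAAM mouse 5, whose mean level of these markers, 2.04 SD, was the highest of all livers.

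The largest differences between single livers mostly did not follow the groups. Of the 92 probe sets with a range over 0.1, 5 had an unadjusted p under 0.05 for higher and 0 for lower. *Cyp4a14*, encoding a fatty acid omega-hydroxylase induced by PPAR alpha, ran on the deposited scale from 6.84 to 9.15 in water and from 7.36 to 9.25 in VAAM. The single highest mouse, VAAM mouse 6, was also the highest for *Vnn1*, another PPAR alpha target, and for *Alas1*, encoding the first enzyme of haem synthesis. *Cxcl9*, an interferon-induced chemokine gene, ran from 7.85 to 8.78 in water and from 7.71 to 9.41 in VAAM, and its highest liver, VAAM mouse 5, was the highest for *H2-Eb1*, an MHC class II gene, and for *Gbp6* as well. The 5 wide probe sets with a p under 0.05 were those of *Nnmt*, *Noct*, *Igfbp1*, *Egr1* and 1 probe set of *Pck1*. *Nnmt*, encoding nicotinamide N-methyltransferase, had the widest range of them and ran from 7.22 to 8.37 in water and from 7.69 to 8.43 in VAAM, with medians of 7.53 and 8.08. Each VAAM mouse exceeded the median of the water mice, and the difference was 1.34 ± 0.60 SD (exact permutation p 0.0344, n = 7 per group).

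Some genes fell into separate levels across the mice. *Gstp3*, a pi-class transferase gene, read 8.42 to 9.04 in 7 livers and 10.14 to 10.26 in the other 7, with nothing between, and 5 of 7 water mice but 2 of 7 VAAM mice were at the upper level. The difference was −1.04 ± 0.58 SD (exact permutation p 0.0583, n = 7 per group). *Cyp2c23*, an arachidonic acid epoxygenase gene, read 8.69 to 8.83 in 9 livers and 9.29 to 9.32 in the other 5, of which 1 was a water mouse and 4 were VAAM mice. *Sdhd*, encoding a membrane anchor of succinate dehydrogenase, was at 6.77 in water mouse 2 and between 8.08 and 8.42 in all other livers. *BC023105* had the widest range, 2.53, with water mouse 3 at 9.53 and every other liver at 8.54 or below.

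**Figure D4:**
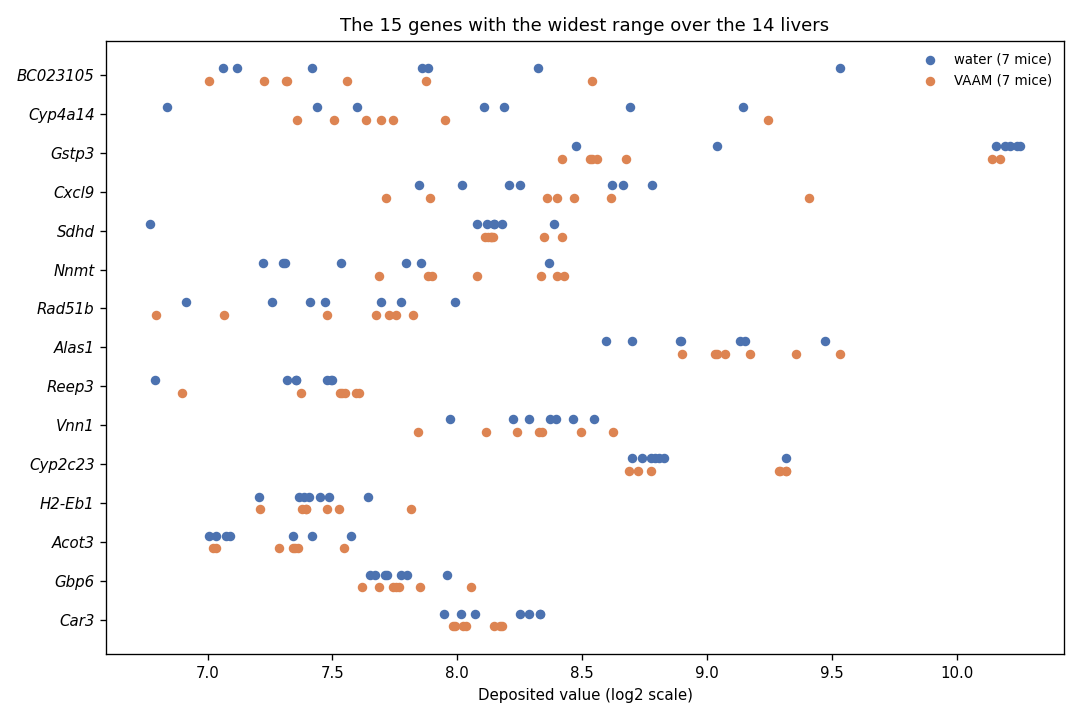
Deposited values (x axis, log2 scale) of the 15 genes with the widest range over the 14 livers. Each point is a mouse, blue for water and orange for VAAM. *Gstp3* and *Cyp2c23* fall into 2 levels, and for most other genes the groups cover the same range.

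The groups did not overlap at all for 24 genes, 7 higher (0.0385% of genes) and 17 lower (0.0934%), each at the smallest exact p the design allows, 0.000583, which 0.132% of all genes reached. At probe sets the shares were 0.0733% higher and 0.0822% lower. The widest gap was that of *Kcnj9*, a potassium channel gene of neurons, where the lowest water mouse was at −1.47 SD and the highest VAAM mouse at −2.99 SD. Its probe set was dim, with a mean of 6.99 where the array median was 6.73, and read −0.85 SD after quantile normalization. *C8g*, encoding a subunit of the complement membrane attack complex made in hepatocytes, was among the 17 lower genes, between −0.73 and 0.74 SD in water and between −4.74 and −1.19 SD in VAAM, and read −0.53 SD after quantile normalization. *Suds3*, encoding a subunit of the Sin3 corepressor, was between −1.20 and 0.45 SD in water and between 0.93 and 4.34 SD in VAAM, but turned to −0.56 SD after quantile normalization. *Lrrc8a* had the narrowest gap of the 7 higher genes, 0.04 SD. A brighter probe set that names it together with *Phyhd1* gave −0.69 ± 0.55 SD (exact permutation p 0.218, n = 7 per group), so the probe sets on this gene disagree.

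Probe sets of a gene were set side by side for the 9010 genes with at least 2 of them. In 33 genes at least 2 probe sets had an unadjusted p under 0.01 in the same direction, 25 higher and 8 lower, and in 7 genes in opposite directions. Among all probe sets 1.11% were higher and 1.19% lower at that limma p. *Cklf*, a chemokine-like gene, had all 7 probe sets higher in VAAM, from 0.61 to 1.93 SD. *Ube3a*, a ubiquitin ligase gene, had all 6 higher, from 0.27 to 2.67 SD, its brightest at 0.55 ± 0.55 SD. *Cert1*, the ceramide transfer gene, and *Ugcg*, encoding the enzyme that makes glucosylceramide, had 2 of 4 and 3 of 4 probe sets at an unadjusted p under 0.01, all higher, although the brightest of *Cert1* was at −0.09 SD. After quantile normalization 1 of the probe sets with an unadjusted p under 0.01 turned its sign in each of *Ube3a* (2.66 to −0.94 SD), *Cert1* (2.55 to −1.03 SD) and *Ugcg* (2.21 to −0.57 SD).

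On the deposited values 382 genes had an unadjusted limma p under 0.01, 0.978% of all genes higher and 1.12% lower. Of these, 25 also had it in the same direction after quantile normalization, 11 higher and 14 lower, and 141 changed sign. Both scalings use the same 14 arrays, so the second is no independent support. The 25 held *Sgk1*, *Slc25a25*, *Ass1*, *Dusp1* and *Sik1* among the higher and *Tmem9b*, *Gsta2* and *Hsd17b10* among the lower genes. *Tmem9b* had the smallest limma p of the 25 on the deposited values, and its groups did not overlap. Its difference was −2.74 ± 0.77 SD (exact permutation p 0.000583, n = 7 per group), and −1.82 SD after quantile normalization. Further higher ones were *Trp53inp1*, a p53 target gene of autophagy, at 2.11 ± 0.69 SD (exact permutation p 0.00291, n = 7 per group), the heat shock factor gene *Hsf2* at 2.11 ± 0.69 SD (exact permutation p 0.00233, n = 7 per group) and *Ccn2*, encoding connective tissue growth factor, at 1.92 ± 0.66 SD (exact permutation p 0.00583, n = 7 per group). *Trp53inp1* ran from −0.78 to 1.44 SD in water and from 0.72 to 3.69 SD in VAAM. *Hsf2* and *Ccn2* were dim, with means of 6.51 and 6.91. The groups of these 3 genes overlapped by a few mice only.

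White and brown fat were collected from the mice that gave the livers, so the 42 arrays are not independent animals. The labels do not say that a replicate number marks 1 mouse across tissues. *Sik1* differed by 1.61, 1.64 and 1.69 SD in liver, white fat (WAT) and brown fat (BAT), and *Dusp1* by 1.63, 1.51 and 1.13 SD. *Errfi1* differed by 1.60, 0.98 and 2.21 SD in the same order. The liver difference minus the mean of both fat tissues was −0.06 SD for *Sik1*, 0.31 SD for *Dusp1* and 0.01 SD for *Errfi1*. Most of these genes were chosen for their liver values, so the liver minus fat values of single genes are a description with no test.

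For *Tat*, *G6pc* and *Fos* the difference in brown fat was −0.70, −0.71 and −0.08 SD and that in white fat 0.41, 0.42 and 0.42 SD. Their liver minus fat values were 1.55, 1.55 and 1.38 SD. The same value was 2.33 SD for the dim probe set of *Ass1*, 1.67 SD for *Slc25a25*, −1.84 SD for *Gsta2* and −2.35 SD for *Gsta4*. In fat *Slc25a25* differed by 1.11 SD in white and 0.39 SD in brown. For *Sgk1* the liver minus fat value was 1.52 SD, with differences of 0.82 SD in white and 1.07 SD in brown fat. Over all probe sets, with values scaled to unit SD in each tissue, limma called 99 higher and 86 lower in liver than in fat when the arrays were treated as independent, and 209 and 182 with a replicate block that joined arrays of the same group and number across tissues. Because that scaling sets the spread of every probe set to the same value, the same contrast was also read against a t reference with 24 degrees of freedom, where 0 higher and 0 lower passed (smallest adjusted p 0.0592, 1979 and 2047 with an unadjusted p under 0.05). The calls thus rest on the spread that limma assumes.

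**Figure D5:**
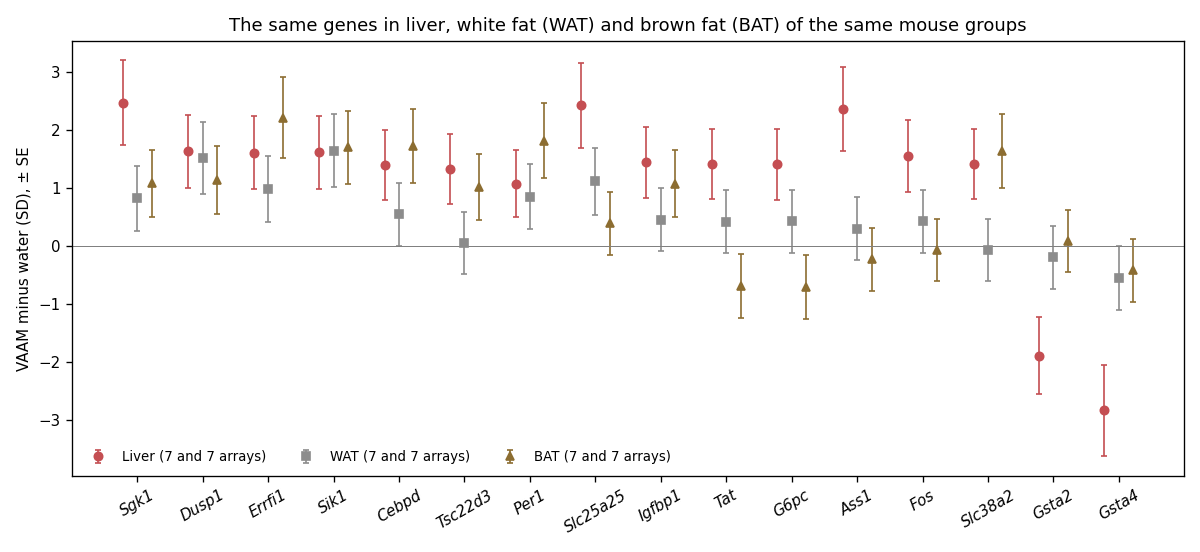
Difference of VAAM minus water in SD (y axis, ± SE) for 16 genes in liver, white fat (WAT) and brown fat (BAT), each from 7 water and 7 VAAM arrays. *Sik1*, *Dusp1* and *Errfi1* have positive differences in all 3 tissues, while *Ass1*, *Gsta2* and *Gsta4* differ by 2.36, −1.90 and −2.84 SD in liver and by no more than 0.56 SD in size in fat.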

How the data were processed

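The deposited table holds 1 log2 value per probe set and array, made by the authors from Affymetrix mouse genome arrays (200 ng of total RNA each) with DFW in R (2.7.2 in the submitters' processing notes, an earlier release in the study's methods). DFW compresses each probe set by its own factor, so differences were divided by the pooled SD within groups. The base of the logarithm, not given in the sources used here, was taken as 2 and cancels in SD units. Of 45101 probe sets, 64 controls were left out. Genes were named from the platform annotation, updated to RefSeq by Entrez ID (34741 of 34945 matched). Mice given the casein-like amino acid mixture were not analysed here. The main test was limma 3.58.1 (R 4.3.3) over 45037 probe sets, water against VAAM, with Benjamini-Hochberg adjustment. Rank products (49 pairs of arrays, 50 permutations, false discovery rate under 0.05) were coded in Python 3.11.15. Whether rank products keep to that false discovery rate when the spread differs between probe sets, as it does here, was not tested. Single genes also had an exact permutation test. Lists (36 pathways, 12 cell types, 663 of 744 genes measured) were described by counts and medians. Genes were named by rule: the 10 higher and 10 lower with the smallest limma p, up to 10 with at least 2 probe sets at p under 0.01 in 1 direction, the highest and lowest member of each list and members with p under 0.01, the 15 with the widest range, and *Elovl3*, *G6pc* and *Pecr*. The other named genes were chosen after their values were seen. The members, lists and tests were chosen with earlier results of these data known. Alternatives were quantile normalization, median centring, other limma settings, a filter at the median level, all 42 arrays, gene means, a replicate block and leaving out each array. The list counts without VAAM mouse 5 or 6 or after quantile normalization, the t reference for liver minus fat, and the genes below p 0.01 on both scalings were added after seeing the data.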

Additional observations from a re-analysis of the deposited data

Results flagged for a closer look

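In 298 groups of 7 mice (149 genes, each group), 20 had 1 mouse whose gap to its neighbour was above Dixon's 95% critical value as a share of the group's range. Chance alone flags about 1 in 20 groups. In water, mouse 6 stood highest for *Tsc22d3* (gap 0.755 of the range, at 2.63 SD), *Ass1* (0.642) and *Per1* (0.584) and lowest for *Csf1r* (0.615) and *Vsig4* (0.591). Water mouse 2 stood lowest for *Sdhd* (0.809, at −3.07 SD), *Reep3* (0.643) and *Gadd45b* (0.602) and highest for *Cyp2c23* (0.792). Lowest water mice also stood apart for *Galnt14* (0.658) and *Zdhhc19* (0.573). In VAAM, mouse 6 stood lowest for *Pecr* (0.765, at −4.11 SD) and *Car3* (0.585) and highest for *Cyp4a14* (0.686). VAAM mouse 4 stood lowest for *Slc38a3* (0.625) and *Noct* (0.617), mouse 7 for *Reep3* (0.614), and mouse 5 highest for *Lyz2* (0.589). Lowest VAAM mice stood apart for *Wdr44* (0.595) and *Dohh* (0.596). By animal, water mice 2 and 6 held 5 each and VAAM mouse 6 held 3. Between tissues, 185 probe sets differed in their liver and fat responses in limma, 99 with the higher difference in liver and 86 with the lower, and 0 with a t reference on 24 degrees of freedom. Both treat arrays of different tissues as independent, although the tissues came from the same mice.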

How the results depend on the processing

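Against 0 adjusted limma calls in the main setting, the replicate block gave 1 (smallest adjusted p 0.0498), quantile normalization 1 and the 42-array fit 691 (326 higher, 365 lower). The 42-array fit sets liver differences against a spread pooled with the fat arrays. After DFW the fat tissues have another spread per probe set, so its calls do not measure the spread between livers. Leaving out 1 array gave 0 to 5 (5 without water mouse 2, 1 without VAAM mouse 5). At an unadjusted p under 0.05, against 1878 higher and 2218 lower, quantile normalization gave 310 and 3000, median centring 194 and 216, the above-median filter 1234 and 911, and gene means 753 and 887 of 18193 genes. Higher calls were 45.8% of these in the main setting, 9.37% after quantile normalization and 57.5% above the median level. Leaving out 1 array gave 1363 to 2220 higher and 1714 to 2729 lower. Rank products, against 1206 and 638, gave 223 and 161 at unit SD, 782 and 314 after quantile normalization, 608 and 314 above the median level, 861 to 1328 higher and 420 (without water mouse 7) to 786 lower with 1 array left out. Liver minus fat, against 185, gave 391 with the replicate block, 2 after quantile normalization and 0 with 24 degrees of freedom.

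The replicate numbers did not pair the mice: same-numbered mice correlated between −0.13 and 0.14, and 1 of 7 best with its own number. With the block 1991 probe sets had a higher and 2012 a lower mean with an unadjusted p under 0.05, and 0 of 149 named genes changed sign. Of the 79 with a p under 0.05, 18 changed sign after quantile normalization, 10 after median centring, 4 as gene means and 0 with 1 array left out. After quantile normalization these were *Wdr44* −0.87, *Bbx* −0.17, *Dohh* −0.22, *Wbp11* −0.0189, *Ces2a* 0.53, *Tob2* −0.40, *Sars* −0.0584, *Gstz1* 0.53, *Pnpla3* 0.29, *Slc27a5* 0.53, *Cyp2d26* 0.53, *Top2a* 0.0458, *Ndufa9* 0.53, *Sdha* 0.53, *Apom* −1.51, *Klf2* −0.17, *Gadd45b* −0.43 and *Crem* −0.60 SD. After median centring they were *Wdr44* −0.34, *C630043F03Rik* −0.0509, *Exoc5* −0.28, *Git2* −0.082, *Dohh* −0.29, *Wbp11* −0.30, *Atxn7l3b* −0.25, *Bcat2* −0.36, *Slc38a3* −0.21 and *Apom* −0.0567 SD. As gene means they were *Abcb8* 0.59, *Nfe2l2* −0.13, *Top2a* 0.28 and *Atp5a1* 0.66 SD. The cause of these changes was not tested. Values of the brightest probe sets are the least certain, since quantile normalization left 7.28% of genes with at most 2 distinct values.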
